A study of Mus musculus with 6 samples.

Results

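Tetraspanins are a family of membrane proteins, and 10 of their genes are described here: Cd63 and the related Cd9, Cd81, Cd82, Cd151, Tspan3, Tspan4, Tspan6, Tspan9 and Tspan14. They were picked by gene symbol from a table of 27179 genes, all 10 were found there, and 9 passed the filter on low counts that left 12345 genes for testing. The table holds RNA-seq counts of mouse embryonic stem cells (mESCs) that express Tfe3-ERT2, the murine transcription factor Tfe3 joined to a tamoxifen-responsive part of the estrogen receptor, kept on gelatin with serum and the cytokine LIF. The 4OHT group (3 libraries) received 4-hydroxytamoxifen at 1 µg/mL for 48 h, which moves the fusion into the nucleus, and the EtOH group (3 libraries) received the ethanol vehicle. Both groups carry the fusion. Cells without it are not analysed here, so an effect of 4OHT itself and one of nuclear Tfe3 cannot be told apart. Nothing in the labels tells if replicate libraries stem from different cultures, or how many clones make up the line, so errors and p-values cover only the spread between these libraries. The members were chosen with the difference between 4OHT and EtOH known, so their differences are given as a description, with no test.

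A tetraspanin crosses the membrane at 4 places that its name refers to, and its larger outer loop binds partner proteins such as integrins, immunoglobulin-type receptors and proteases. Tetraspanins gather these partners into patches of membrane. Cd63 is best known in late endosomes and lysosomes, where a tyrosine-based signal in its tail is read by clathrin adaptor complexes, and on exosomes, vesicles that form inside multivesicular bodies and are released from the cell. Cd9 and Cd81 sit mainly at the cell surface and are common exosome markers, and Tfe3 belongs to a family of factors known for turning on lysosomal genes.

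Total counts were between 4648374 and 6427880 in the 4OHT libraries and between 4092877 and 4984364 in the EtOH libraries, and levels are given as CPM, counts scaled to library size with TMM factors. A value of 3 counts was 0.469 to 0.738 CPM, depending on the library. Tfe3, whose counts pool the endogenous gene and the fusion as far as they share sequence, was at 832 ± 4.34 CPM in 4OHT and 1038 ± 35.1 CPM in EtOH (SD, n = 3 each), and fell (1.25-fold lower, edgeR adjusted p = 9.8e-19). Stem cell markers were present in every library, with a summed level of Pou5f1, Sox2, Nanog, Zfp42, Esrrb and Klf4 of 2958 to 3000 CPM in 4OHT and 2605 to 2659 CPM in EtOH. Of these, Pou5f1 fell (1.14-fold lower, edgeR adjusted p = 7.8e-07), Sox2 was not called, and the other 4 rose, Esrrb the most (1.56-fold, edgeR adjusted p = 2.2e-48). Markers of other cell types were low. The summed level of 6 fibroblast markers was 19.1 to 25.3 CPM in 4OHT and 14.9 to 23.1 CPM in EtOH, that of 4 primitive endoderm markers 9.33 to 11.4 CPM in 4OHT and 4.92 to 9.27 CPM in EtOH, and that of 4 macrophage markers 1.08 to 2.17 CPM in 4OHT and 0 to 1.61 CPM in EtOH, with Adgre1 at 0 in all. Among the fibroblast markers, the groups overlapped for Col1a1 (10.3 CPM in 4OHT and 10.6 CPM in EtOH), Col3a1 and Thy1. Every 4OHT library was above every EtOH library for Col1a2 (3.91 CPM in 4OHT and 2.48 CPM in EtOH), which was not called. The same held for Pdgfrb (3.30 CPM in 4OHT and 1.71 CPM in EtOH) and Postn (0.417 CPM in 4OHT and 0 CPM in EtOH), both too low to be tested. The 4 trophectoderm markers Cdx2, Elf5, Eomes and Gata3 summed to 19.8 to 26.5 CPM in 4OHT and 8.86 to 12.0 CPM in EtOH. Eomes (2.61-fold, edgeR adjusted p = 1.1e-09) and Gata3 (2.24-fold, edgeR adjusted p = 4.5e-05) rose. Too low to be tested were Cdx2 (1.54 CPM in 4OHT and 2.25 CPM in EtOH) and Elf5 (0.0601 CPM in 4OHT and 0 CPM in EtOH). The part of cells of other types in the results was not tested. In bulk RNA, fewer cells of a type and less RNA per cell cannot be told apart.

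Cd63 differed most among the members. It was at 196, 197 and 189 CPM in the 4OHT libraries, against 30.0, 36.2 and 34.0 CPM in the EtOH libraries. Every 4OHT library was thus far above every EtOH library, and the libraries of a group lay close together. The ratio of 4OHT to EtOH was 5.82-fold (log2 fold change 2.54, SE 0.07), the 12th highest log2 fold change of the 12345 tested genes. Over 13 alternative settings it stayed between 5.51-fold and 6.09-fold. Cd63 (Entrez Gene 12512) lies on mouse chromosome 10 at 128896231 to 128912822 on GRCm38, the assembly also called mm10. Its nearest protein-coding neighbours on either side were too low to be tested. Gdf11, which encodes a secreted factor of the TGF-beta family and lies 4512 bases from Cd63, was at 1.81 CPM in 4OHT and 1.37 CPM in EtOH. Rdh5, a retinol dehydrogenase gene 765 bases from Cd63, was at 0.830 CPM in 4OHT and 1.05 CPM in EtOH. A processed pseudogene, Cd63-ps, shares 387 of the 3991 stretches of 50 bases in annotated Cd63 transcripts (GENCODE vM21). The annotated transcripts include a retained intron model and a processed transcript model, so this share is not the share of counts that the pseudogene could affect. How reads matching both were counted is not given in the sources used here. The level of Cd63 is thus uncertain by an unknown amount, and the pseudogene is not analysed here.

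**Figure D1:**
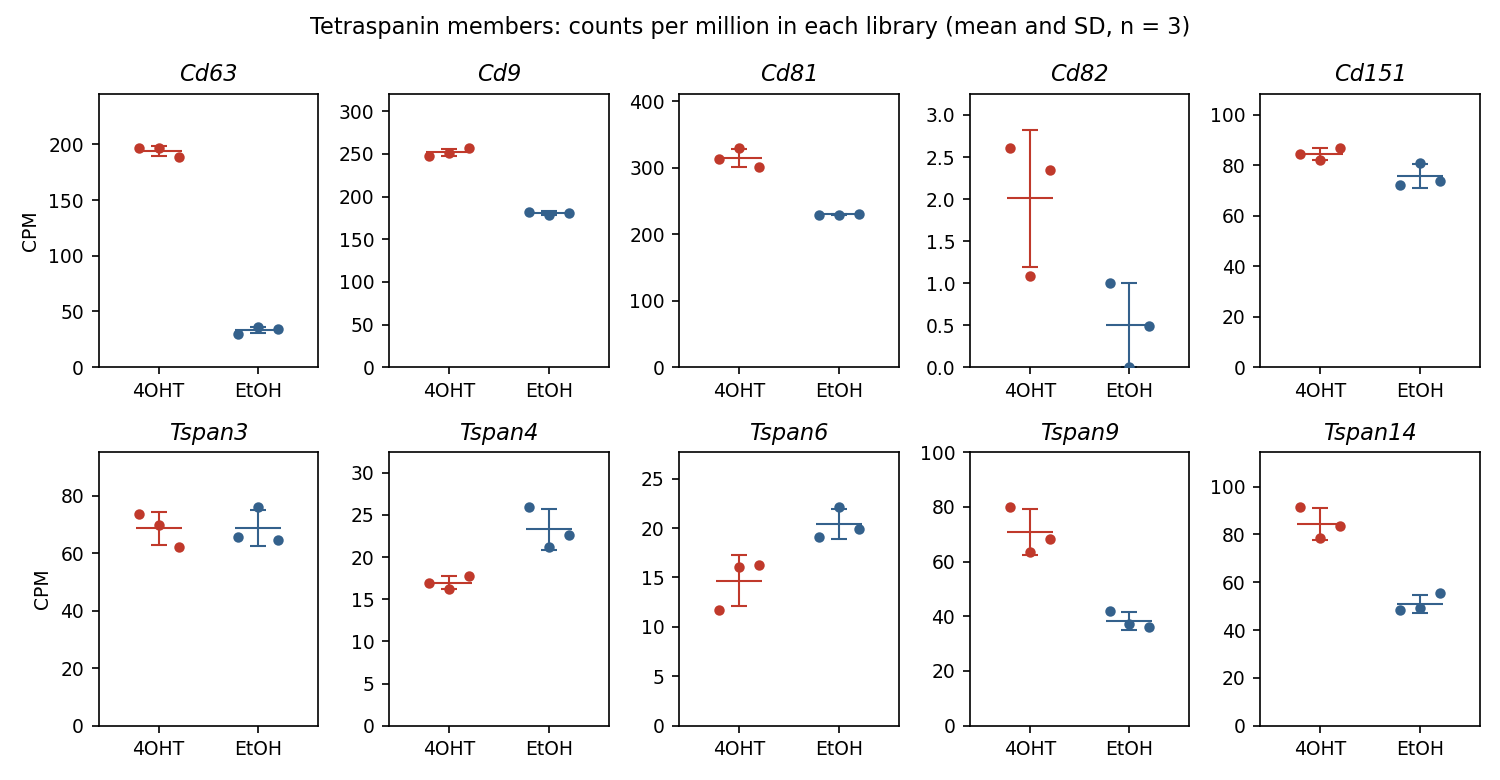
CPM of the 10 tetraspanin genes in each library, one panel per gene with its own axis from 0, 4OHT left of EtOH. Points are libraries and bars are the mean and SD (n = 3). The panel of Cd63 shows the widest gap, with means of 194 CPM in 4OHT and 33.4 CPM in EtOH, while the groups overlap for Tspan3.

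The start of Cd63 is shown here because it is the member with the widest difference, and those of Tspan3 and Tspan4 because they hold the only matches to E-box type motifs among the members. Factors of the family of Tfe3 are known to bind E-boxes with the core CACGTG and the longer forms TCACGTGA and TCATGTGA. These were searched on both strands in windows of 300 bases, from 250 before to 50 after an annotated start (RefSeq, GRCm38.p6), and each match to TCACGTGA is also a match to CACGTG. All 10 members had a window, 19 in all. The windows read 5′ to 3′ on the strand of the gene, with the motif match in capitals.
Cd63, chr10:128909095-128909394, plus strand: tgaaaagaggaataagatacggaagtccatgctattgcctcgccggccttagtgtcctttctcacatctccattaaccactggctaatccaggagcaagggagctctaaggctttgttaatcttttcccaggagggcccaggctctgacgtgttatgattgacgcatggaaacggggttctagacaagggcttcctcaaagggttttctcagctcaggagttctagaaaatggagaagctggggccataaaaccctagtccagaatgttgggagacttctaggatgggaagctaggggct
Tspan3, chr9:56161021-56161320, minus strand: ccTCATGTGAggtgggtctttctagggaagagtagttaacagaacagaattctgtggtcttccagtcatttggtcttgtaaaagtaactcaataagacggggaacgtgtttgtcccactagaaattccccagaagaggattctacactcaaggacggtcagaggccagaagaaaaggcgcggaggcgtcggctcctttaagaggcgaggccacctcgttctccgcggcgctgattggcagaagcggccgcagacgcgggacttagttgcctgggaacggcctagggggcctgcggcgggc
Tspan4, chr7:141476130-141476429, plus strand: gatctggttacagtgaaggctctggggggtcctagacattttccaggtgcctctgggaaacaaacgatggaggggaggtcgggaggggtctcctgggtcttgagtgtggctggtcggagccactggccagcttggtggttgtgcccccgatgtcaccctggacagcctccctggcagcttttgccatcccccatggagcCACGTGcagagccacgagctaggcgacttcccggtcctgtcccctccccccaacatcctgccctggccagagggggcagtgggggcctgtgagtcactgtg
The Cd63 window holds none of these letters. It belongs to the start at 128909345, 1 of 6 annotated transcript starts of the gene in GENCODE vM21, 4 of them of protein-coding models. The RefSeq span of Cd63 begins at 128896231, before all 6 of these starts. The counts do not tell which start was used. The Tspan3 window holds TCATGTGA, with its first base 248 bases before the start. The second of 2 Tspan4 windows holds CACGTG, 51 bases before its start. The other 17 windows hold none. Of 32851 windows of all genes, 7.15% hold CACGTG, 0.974% TCACGTGA and 0.986% TCATGTGA. A match in a window of this kind is a match of letters, not a site shown to be bound. The members with a match were one with overlapping groups (Tspan3) and one that was lower in 4OHT (Tspan4). Whether a match, or its absence, bears on a difference between the groups was not tested. Bases outside these windows were not searched.

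Of the 9 members that passed the filter, 6 were past the threshold in the higher direction and 2 in the lower (edgeR quasi-likelihood fit, Benjamini-Hochberg adjusted p under 0.05 over all genes). In all tested genes the threshold was passed by 42.0%, of which the higher direction made 21.4% of tested genes and the lower 20.6%. The groups did not overlap for 8 of the 9, with 6 above and 2 below, beside 48.8% of all tested genes without overlap, 25.1% above and 23.7% below. The median log2 fold change was 0.45 in these 9 members and -0.0024 in all tested genes. Because the choice of members was made with this contrast in view, nothing is read from these counts.

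Cd9 and Cd81, close relatives that act in cell fusion and adhesion and associate with the same immunoglobulin-type proteins, had similar ratios. Cd9 was at 248, 251 and 257 CPM in the 4OHT libraries, against 182, 178 and 181 CPM in the EtOH libraries. Cd81 was at 313, 329 and 302 CPM in 4OHT, against 229, 229 and 231 CPM in EtOH. For both genes the groups were well apart, and the EtOH libraries of Cd81 differed from each other by less than its 4OHT libraries did. The ratio was 1.39-fold for Cd9 (log2 fold change 0.48, SE 0.04) and 1.37-fold for Cd81 (log2 fold change 0.45, SE 0.04). Cd9 lies on chromosome 6 (125460266 to 125494760). Of the 1992 stretches of 50 bases in its annotated transcripts, 287 also occur, on either strand, in transcripts of other genes. How reads matching several genes were counted is not given. Cd9 shares 10.7% of its exon bases with Gm26728, a gene model on the opposite strand that holds 169 of the 287 stretches. Cd81 lies on chromosome 7 (143052750 to 143067930) and shares 3.61% with R74862, also on the opposite strand. R74862 itself had between 10 and 21 counts in 4OHT libraries and between 13 and 18 in EtOH libraries. The library kit marks strand, but the strand setting of the counting is not given in the sources used here.

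Tspan9 and Tspan14 had the next largest ratios after Cd63 among the 9 tested members. Tspan9, known from platelets, was at 80.1, 63.7 and 68.4 CPM in the 4OHT libraries, against 42.1, 37.1 and 35.9 CPM in the EtOH libraries. Tspan14 was at 91.6, 78.4 and 83.4 CPM in 4OHT, against 48.5, 49.3 and 55.4 CPM in EtOH. The groups did not overlap, and replicate 1 was the highest of the 4OHT libraries for both genes. The ratio was 1.82-fold for Tspan9 (log2 fold change 0.87, SE 0.08) and 1.65-fold for Tspan14 (log2 fold change 0.73, SE 0.07). Tspan14 belongs to the TspanC8 group, tetraspanins with many cysteines in the outer loop that guide the protease Adam10 through the cell. Tspan9 (chromosome 6, 127961396 to 128143578) and Tspan14 (chromosome 14, 40906427 to 40967073) share no stretch of 50 bases with annotated transcripts of other genes.

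Cd151 and Tspan3 differed little. Cd151, which binds laminin-binding integrins, was at 84.2, 81.9 and 86.7 CPM in the 4OHT libraries, against 72.3, 80.9 and 73.8 CPM in the EtOH libraries. The lowest 4OHT library stood just above EtOH replicate 2. The ratio was 1.12-fold (log2 fold change 0.16, SE 0.07), and Cd151 was past the threshold in only 3 of the 13 alternative settings that kept it at 0.05, and not at 0.01. Cd151 shares 7.04% of its exon bases with Gm10575, a gene model on the opposite strand. Gm10575 holds 145 of the 3022 stretches of 50 bases in annotated Cd151 transcripts. Tspan3, a widely expressed member that in mice and humans is found in many tissues, was at 73.8, 69.8 and 62.3 CPM in 4OHT, against 65.7, 76.2 and 64.7 CPM in EtOH. Its groups overlapped over most of their range, with a log2 fold change of -0.014 (SE 0.07) that was 0.059 without 4OHT replicate 3 and 0.064 without EtOH replicate 2.

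Tspan4 and Tspan6 were lower in 4OHT. Tspan4, known from migrasomes, vesicles left behind by moving cells, was at 16.9, 16.2 and 17.8 CPM in the 4OHT libraries, against 26.0, 21.2 and 22.6 CPM in the EtOH libraries. Tspan6, on the X chromosome, was at 11.7, 16.1 and 16.2 CPM in 4OHT, against 19.1, 22.2 and 19.9 CPM in EtOH. The groups did not overlap for either gene, but they stood closer than those of Tspan9 or Tspan14. Tspan4 was 1.37-fold lower (log2 fold change -0.46, SE 0.13) and Tspan6 was also 1.37-fold lower (log2 fold change -0.45, SE 0.14). Tspan4 was not past the threshold without EtOH replicate 1, where its log2 fold change was -0.36, and Tspan6 was not without 4OHT replicate 1, where it was -0.33. Tspan4 and Cd151 are near neighbours on chromosome 7, separated by 3754 bases and 1 protein-coding gene, and they differed in opposite directions. Tspan4 shares 13.4% of its exon bases with Chid1 on the opposite strand, which was at 21.9 ± 0.835 CPM in 4OHT and 20.8 ± 1.13 CPM in EtOH (SD, n = 3 each, log2 fold change 0.070).

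Cd82, known as a suppressor of metastasis, was the member too low to be tested. It had 12, 6 and 15 counts in the 4OHT libraries and 5, 0 and 2 counts in the EtOH libraries. That is 2.60, 1.08 and 2.34 CPM in 4OHT, against 1.01, 0 and 0.492 CPM in EtOH. Most of these values lie within a few counts of the level that 3 counts give, so the size of the difference is poorly known at this depth. With no filter on low counts its fitted log2 fold change was 1.90 (SE 0.60).

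Levels were compared between genes per length, as TPM, in which counts are divided by the gene length in the file before scaling. In 4OHT the order was Cd9 (483 ± 14.2 TPM), Cd81 (473 ± 17.1), Cd63 (427 ± 5.28), Cd151 (95.7 ± 3.74), Tspan3 (90.6 ± 6.74), Tspan14 (77.9 ± 5.99), Tspan9 (41.1 ± 4.78), Tspan4 (24.7 ± 1.41), Tspan6 (19.0 ± 3.43) and Cd82 (2.48 ± 1.01 TPM; SD, n = 3 each). The ranges of the libraries overlapped between Cd9 and Cd81, between Cd151 and Tspan3, and between Tspan3 and Tspan14, so the order within these pairs is not set. In EtOH the order was Cd9 (340 ± 4.36 TPM), Cd81 (340 ± 6.21), Tspan3 (89.5 ± 10.2), Cd151 (84.5 ± 6.90), Cd63 (72.3 ± 7.84), Tspan14 (46.2 ± 2.87), Tspan4 (33.3 ± 3.14), Tspan6 (26.0 ± 2.52), Tspan9 (21.9 ± 1.85) and Cd82 (0.598 ± 0.605 TPM; SD, n = 3 each). There the ranges overlapped between Cd9 and Cd81, between Tspan3 and Cd151, and between Cd151 and Cd63. Cd63 thus had rank 3 in 4OHT, below Cd9 and Cd81 and clear of the others, and rank 5 in EtOH, where its range overlapped that of Cd151. Tspan9 stood above Tspan4 and Tspan6 in 4OHT and below them in EtOH, but without division by gene length it stood above both in either group.

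The summed level of the 10 members was 1735 ± 4.05 TPM in 4OHT and 1054 ± 32.9 TPM in EtOH (SD, n = 3 each), a ratio of 1.65. Without Cd63 the sum was 1308 ± 3.86 TPM in 4OHT and 982 ± 26.5 TPM in EtOH, a ratio of 1.33. Cd63 alone made 52.1% of the difference between the summed means, Cd9 20.9% and Cd81 19.6%. Cd63 held 24.8%, 24.7% and 24.3% of the summed level in the 4OHT libraries, against 6.22%, 7.34% and 6.99% in the EtOH libraries. Cd9 held 27.8 ± 0.849% in 4OHT and 32.3 ± 0.720% in EtOH, and Cd81 27.3 ± 0.922% in 4OHT and 32.2 ± 0.409% in EtOH (SD, n = 3 each). The shares of Cd9 and Cd81 were lower in 4OHT although their own levels were higher there. A share depends on the length given for each gene and on all other members.

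**Figure D2:**
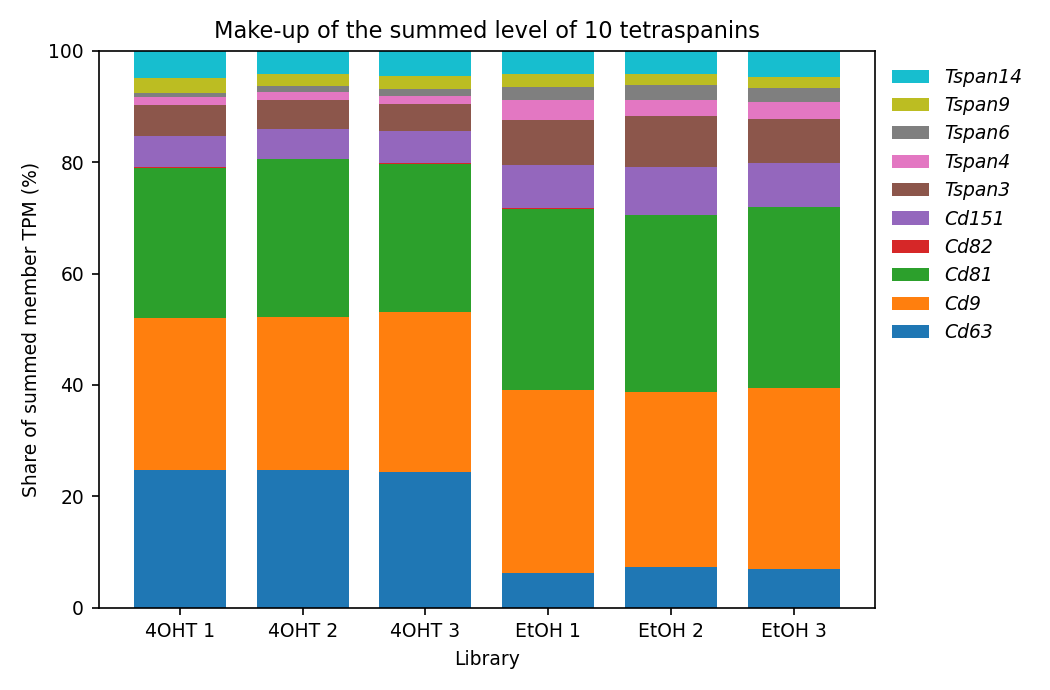
Share of each of the 10 genes in their summed TPM, one stacked bar per library, the 3 4OHT libraries left of the 3 EtOH libraries. The Cd63 segment at the bottom takes 24.3% to 24.8% in 4OHT and 6.22% to 7.34% in EtOH.

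The rest of the family was taken from a second list. Of 23 further tetraspanin genes listed, 21 were in the table and 11 were tested with edgeR, of which 3 rose (Cd37, Tspan31 and Tspan32), 1 fell (Tspan7) and 7 were not called, against 21.4% and 20.6% of all tested genes in each direction. Their median log2 fold change was 0.04. DESeq2 called Tspan7 but none of the 3 that rose in edgeR (adjusted p = 0.088 for Cd37, 0.099 for Tspan31 and 0.052 for Tspan32). Tspan7, a member best known from nerve cells, was at 11.9, 11.4 and 11.6 CPM in the 4OHT libraries, against 23.6, 23.5 and 24.1 CPM in the EtOH libraries. Its groups were far apart and narrow, and it was 2.04-fold lower (log2 fold change -1.03, SE 0.14, edgeR adjusted p = 1.0e-10).

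Tspan31 was at 66.8, 69.6 and 64.7 CPM in 4OHT, against 58.2, 59.5 and 55.8 CPM in EtOH, so the groups stood apart by a small margin (1.16-fold, edgeR adjusted p = 0.017). The call was lost without 4OHT replicate 2 (edgeR adjusted p = 0.065) and without EtOH replicate 3 (0.068). Tspan32, a gene of blood cells that lies 33263 bases from Cd81 with no protein-coding gene between them, was at 4.77, 5.77 and 3.90 CPM in 4OHT, against 2.42, 2.49 and 2.21 CPM in EtOH (log2 fold change 1.00, SE 0.32, edgeR adjusted p = 0.0065). Cd37, known from B cells, was at 2.60, 4.15 and 3.75 CPM in 4OHT, against 1.21, 1.36 and 2.46 CPM in EtOH (log2 fold change 1.11, SE 0.38, edgeR adjusted p = 0.012). Both genes are low, and the lowest 4OHT library of Cd37 stood only just above EtOH replicate 3. The Cd37 call was lost without 4OHT replicate 2 (edgeR adjusted p = 0.052), EtOH replicate 1 (0.0911) or EtOH replicate 2 (0.053).

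The TspanC8 relatives of Tspan14 that could be tested were not called. Tspan5 was at 30.4 ± 2.03 CPM in 4OHT and 32.7 ± 5.38 CPM in EtOH, Tspan15 at 4.40 ± 0.960 CPM in 4OHT and 5.02 ± 1.32 CPM in EtOH, Tspan17 at 8.69 ± 1.07 CPM in 4OHT and 11.1 ± 1.96 CPM in EtOH, and Tspan33 at 3.85 ± 1.00 CPM in 4OHT and 3.94 ± 1.18 CPM in EtOH (SD, n = 3 each). Tspan10, the remaining one, had 3 counts in 4OHT replicate 2 and none elsewhere. Whether Tspan14 differs from these genes in its ratio was not tested. Tspan2 (log2 fold change 0.076), Tspan13 (0.041) and Rom1 (0.38), which encodes a protein of photoreceptor discs, were not called either. The other 9 genes of the family in the table were too low to be tested, Cd53, Tspan1, Tspan8, Tspan11, Tspan12, Tspan18, Upk1a, Upk1b and Prph2, none above a mean of 2.21 CPM (Upk1a in EtOH), and Tspan11 had no count in any library.

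**Figure D3:**
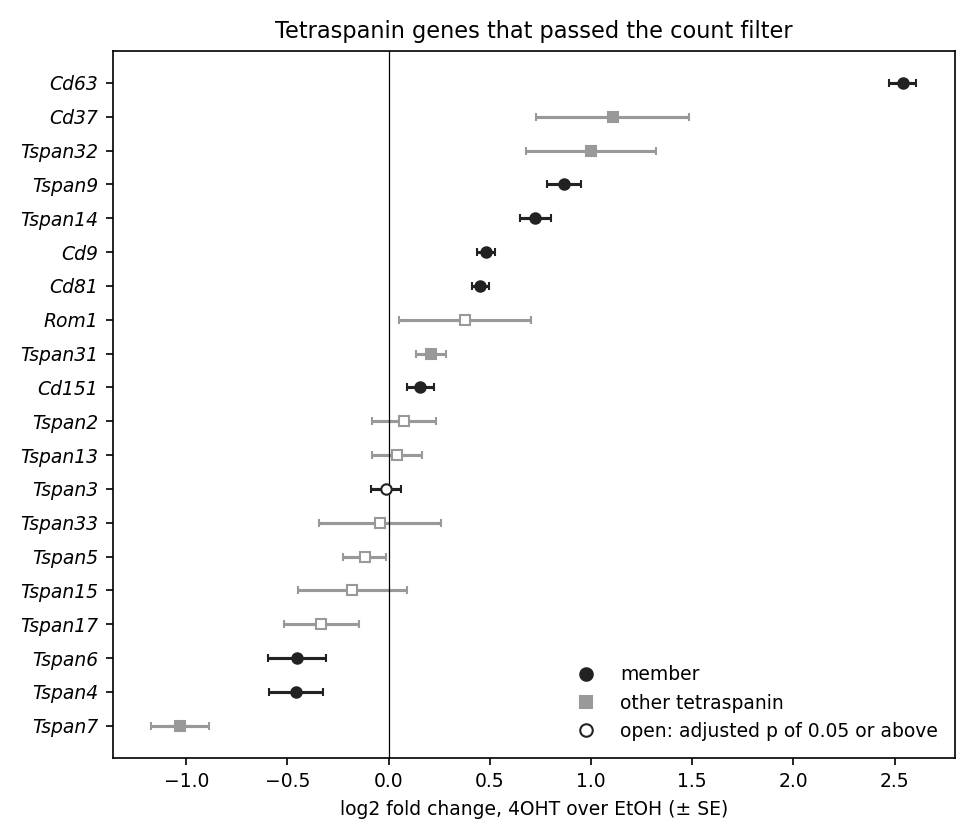
Log2 fold change, 4OHT over EtOH, with its SE for the 20 tetraspanin genes that passed the count filter. Circles are the members and squares the other tetraspanins, and open symbols have an adjusted p of 0.05 or above. Cd63 stands apart at 2.54, and Tspan7 is lowest at -1.03.

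Partners that tetraspanins hold in the membrane were tested next, from lists chosen with earlier results of these data known. Of 16 tested partner genes, 8 rose and 4 fell (median log2 fold change 0.20; 21.4% and 20.6% of all tested genes). The integrin subunits that bind laminin and pair with Cd151 all rose. Itgb4 was at 31.0, 31.7 and 32.8 CPM in the 4OHT libraries, against 15.7, 14.0 and 13.0 CPM in the EtOH libraries (2.23-fold, edgeR adjusted p = 8.7e-16). Its partner subunit Itga6 was at 259, 247 and 256 CPM in 4OHT, against 175, 184 and 180 CPM in EtOH (1.42-fold, edgeR adjusted p = 3.7e-22). Both were well apart between the groups. Itga3 (1.14-fold, edgeR adjusted p = 8.9e-05), Itgb1 (1.16-fold, edgeR adjusted p = 1.4e-06) and the low Itga7 (2.16-fold, edgeR adjusted p = 0.0039, but 0.083 without EtOH replicate 2) rose as well.

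Hbegf, a membrane-anchored growth factor that associates with Cd9, was at 69.9, 67.6 and 67.5 CPM in 4OHT, against 23.8, 24.6 and 25.8 CPM in EtOH. The groups were narrow and far apart, and it rose 2.76-fold (log2 fold change 1.47, SE 0.09, edgeR adjusted p = 6.3e-38). Adam10, the protease that TspanC8 proteins guide, rose 1.51-fold (45.4 ± 7.48 CPM in 4OHT and 30.1 ± 3.75 CPM in EtOH; SD, n = 3 each, edgeR adjusted p = 8.0e-08), with 4OHT replicate 3 the highest library at 53.9 CPM. Of the receptors that Adam10 cleaves, Notch1 fell (1.26-fold lower, edgeR adjusted p = 0.00090), and Notch2 was not called (log2 fold change 0.11).

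The immunoglobulin-type partners of Cd9 and Cd81 moved both ways. Igsf8 was at 33.2, 36.6 and 33.7 CPM in the 4OHT libraries, against 48.5, 47.2 and 45.3 CPM in the EtOH libraries, and fell (edgeR adjusted p = 1.4e-05, 1.36-fold lower), while Cd9 and Cd81 were higher there. Ptgfrn was 1.11-fold lower, a small fall (edgeR adjusted p = 0.026) that no longer passed without 4OHT replicate 1 (edgeR adjusted p = 0.12), 4OHT replicate 3 (0.12), EtOH replicate 1 (0.074) or EtOH replicate 2 (0.083), and in DESeq2 (0.12). Igsf3 rose 1.18-fold (edgeR adjusted p = 0.012), which did not pass without EtOH replicate 3 (0.063) or in DESeq2 (0.083). The epithelial adhesion gene Epcam, whose protein is found in tetraspanin patches with claudin 7, fell (1.26-fold lower, edgeR adjusted p = 1.1e-13), while its partner Cldn7 missed the threshold (log2 fold change -0.17; edgeR adjusted p = 0.080, but 0.034 without 4OHT replicate 1, 0.032 without EtOH replicate 1 and 0.032 with upper quartile factors). Timp1, a secreted ligand of Cd63, was not called (20.7 ± 1.75 CPM in 4OHT and 18.2 ± 0.299 CPM in EtOH; SD, n = 3 each), nor was Cd44 (log2 fold change 0.44).

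Of 22 tested genes of exosomes and multivesicular bodies, 10 rose and 1 fell (median log2 fold change 0.19; 21.4% and 20.6% of all tested genes). Among those that rose, Sdc4, Sdcbp and Pdcd6ip encode syndecan 4, syntenin and Alix, which join in a chain that loads Cd63-bearing vesicles. Sdc4 was at 172, 145 and 158 CPM in the 4OHT libraries, against 82.6, 88.4 and 76.8 CPM in the EtOH libraries (1.91-fold, edgeR adjusted p = 8.9e-38). Pdcd6ip was at 204, 189 and 204 CPM in 4OHT, against 136, 138 and 132 CPM in EtOH (1.46-fold, edgeR adjusted p = 3.6e-22). Sdcbp rose 1.41-fold (edgeR adjusted p = 6.7e-10), and its groups, like those of Sdc4 and Pdcd6ip, did not overlap. The one that fell was Sdc1, a second syndecan, at 15.6, 17.5 and 20.5 CPM in 4OHT, against 26.0, 33.9 and 35.7 CPM in EtOH (1.75-fold lower, edgeR adjusted p = 2.9e-09). Ehd1, which recycles endosomal membrane, rose 1.44-fold (edgeR adjusted p = 5.9e-25). The small GTPase genes Rab7, Rab11a and Rab31, which direct late, recycling and exosome-forming endosomes, rose 1.23-fold, 1.29-fold and 1.31-fold, and the sorting genes Hgs, Stam and Vps4b rose 1.22-fold, 1.24-fold and 1.13-fold. Other sorting genes of the list were not called, namely Tsg101 (log2 fold change -0.0495), Stam2 (-0.10), Vps4a (0.086), Chmp4b (0.065) and Chmp4c (0.00093). Arf6 (0.039), Rab35 (-0.063), Pld2 (0.41), Flot1 (0.21) and Flot2 (0.17) were not called either. Pld2 was called higher without EtOH replicate 2, and Flot1 and Flot2 without 4OHT replicate 2. Rab27a, which docks multivesicular bodies for release, was not called (log2 fold change 0.076), Rab27b was at or under 2 counts in every library, and Smpd3, the neutral sphingomyelinase of exosome formation, stayed untested at 1.02 CPM in 4OHT and 1.98 CPM in EtOH.

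Of 11 tested subunits of clathrin adaptors that read tyrosine signals such as that of Cd63, 7 rose and none fell in edgeR (median log2 fold change 0.24; 21.4% and 20.6% of all tested genes), with 1 lower at an unadjusted p under 0.05 and none lower in DESeq2 or limma-voom. The AP-3 complex carries Cd63 from endosomes towards lysosomes. Its large subunits Ap3d1 and Ap3b1 rose 1.38-fold (180 ± 5.59 CPM in 4OHT and 130 ± 7.57 CPM in EtOH; SD, n = 3 each, edgeR adjusted p = 2.1e-16) and 1.32-fold (edgeR adjusted p = 9.4e-13). Its smaller subunits Ap3m1, Ap3s1 and Ap3s2 were not called (log2 fold changes -0.063, -0.18 and -0.16), although Ap3s2 was called lower with upper quartile factors and in 3 other alternatives. In AP-2, which takes up Cd63 from the cell surface, Ap2b1 (1.21-fold, edgeR adjusted p = 5.7e-10), Ap2a2 (1.18-fold, edgeR adjusted p = 2.1e-06), Ap2s1 (1.20-fold, edgeR adjusted p = 0.0016, but 0.085 without EtOH replicate 2) and Ap2a1 (1.11-fold, edgeR adjusted p = 0.0072, but 0.13 without EtOH replicate 3 and 0.067 in DESeq2) rose. Ap2m1, its subunit that binds the tyrosine signal, was not called (log2 fold change 0.12), and Ap1m1 of AP-1 rose 1.35-fold (edgeR adjusted p = 2.6e-06).

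Of 10 tested further genes of lysosomal membrane proteins, 6 rose and none fell in edgeR (median log2 fold change 0.21; 21.4% and 20.6% of all tested genes), none lower at an unadjusted p under 0.05, and none lower in DESeq2 or limma-voom. Cd68 was at 39.9, 34.6 and 33.9 CPM in the 4OHT libraries, against 16.1, 11.3 and 18.0 CPM in the EtOH libraries (2.38-fold, edgeR adjusted p = 9.5e-19). It is also a macrophage marker. Of the 4 macrophage markers of the list, all too low to be tested, Csf1r was at 0.919 CPM in 4OHT and 0.149 CPM in EtOH, Cd14 at 0.678 CPM in 4OHT and 0.433 CPM in EtOH, and Ptprc at 0.112 CPM in 4OHT and 0.283 CPM in EtOH, while Adgre1 had no count. Their part in the level of Cd68 was not tested. Lamp1 rose 1.83-fold (edgeR adjusted p = 6.3e-63), Lamp2 1.30-fold (edgeR adjusted p = 4.7e-06) and Cd164 1.15-fold (edgeR adjusted p = 4.1e-05). Npc1 (edgeR adjusted p = 0.018) and Tmem192 (edgeR adjusted p = 0.032) rose too, but neither call was stable. Npc1, whose groups overlapped, lost it in DESeq2 (0.11) and without 4OHT replicate 1 (0.12), EtOH replicate 2 (0.063) or EtOH replicate 3 (0.099). Tmem192 lost it in DESeq2 (0.14), with upper quartile factors (0.057) and without 4OHT replicate 1 (0.11), 4OHT replicate 3 (0.081), EtOH replicate 1 (0.060) or EtOH replicate 3 (0.11). The other 4, Scarb2, Laptm4a, Laptm4b and Cd1d1, had log2 fold changes of 0.11, -0.016, 0.034 and -0.16. The log2 fold change of Cd63, 2.54, was above that of every gene in these 4 lists, the highest of which was 1.47 for Hbegf. That difference was not tested, since Cd63 was chosen for its size.

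**Figure D4:**
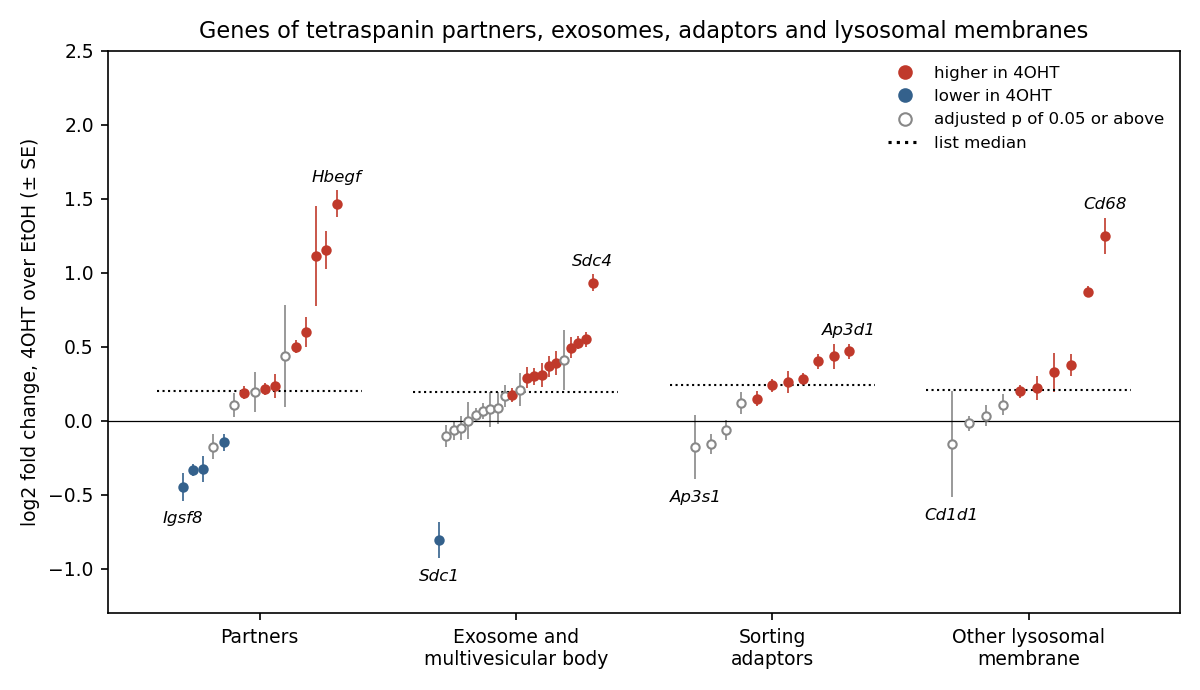
Log2 fold change, 4OHT over EtOH, with its SE for every tested gene of 4 lists, ordered by value within a list. Filled red points rose and filled blue points fell (edgeR adjusted p under 0.05), open points were not called, and dotted lines are list medians of 0.20, 0.19, 0.24 and 0.21. The lowest and highest gene of each list is named, among them Hbegf at 1.47 and Sdc1 at -0.80.

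The genes whose profile over the 6 libraries was most like that of Cd63 were Lrrc15, AU015836, Slco2a1, Ubd and Itpr2, by the Euclidean distance between centred log2 CPM profiles among 11399 genes whose log2 CPM averaged 2 or more. Their distances were between 0.352 and 0.499 on the log2 scale. AU015836 was the one nearest to Cd63 in level, at 171, 159 and 182 CPM in the 4OHT libraries, against 34.0, 30.5 and 36.4 CPM in the EtOH libraries. Slco2a1, a prostaglandin transporter gene, was at 33.0, 29.4 and 28.3 CPM in 4OHT, against 5.84, 4.75 and 5.90 CPM in EtOH. These profiles consist mainly of the step between the groups. They were made with a prior of 2 counts added, which narrows the step of low genes, so a small distance means a similar step on that scale only. The fitted log2 fold changes were 2.86 for Lrrc15, 2.35 for AU015836, 2.44 for Slco2a1, 2.47 for Ubd and 3.13 for Itpr2. That of Cd63 was 2.54.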

How the data were processed

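The authors deposited raw counts per gene for 6 libraries of total RNA made with a stranded mRNA kit, per the labels, with each gene's length in bases. The submitters' processing notes name fastp, STAR, featureCounts and mm10 without roles or versions. Of the annotation, the strand setting and the rule for multi-mapped reads, the sources used here say nothing. Rows without a symbol (1314, between 0.411% and 0.478% of counts) kept their identifier and stayed in the tests.

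Genes were kept with edgeR's filterByExpr (minimum count 10, total 15) and compared with edgeR 4.0.16 (TMM factors, robust dispersion and quasi-likelihood test, in R 4.3.3), and p-values were adjusted by Benjamini-Hochberg across the 12345 genes, with a threshold of 0.05. SE is the absolute log2 fold change over the square root of F. CPM used library sizes of the tested genes, and TPM counts divided by gene length. Replicate pairs all differed by more than counting error. Floors cover counting error only. The depth was between 4092877 and 6427880 counts. Alternatives were other scaling (upper quartile, or DESeq2's size factors), other filters (none, or 1 CPM in 3 libraries), a replicate block, dropping each library in turn, the tools DESeq2 1.42.0 and limma-voom (limma 3.58.1), and a threshold of 0.01. The edgeR test with its main settings was first checked on simulated counts, and the alternatives were not.

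Named were all members, Tfe3, the other tetraspanins tested, the called genes of each list with the lowest p (4 at most), the 5 profiles nearest to Cd63, the neighbours of Cd63 and genes overlapping member exons. Other genes named from the lists, and neighbours of other members, were chosen after their values were seen. The members and lists were chosen with earlier results of these data known. Positions are RefSeq's on GRCm38.p6. Figures were drawn with matplotlib 3.10.9 in Python 3.11.15.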

Additional observations from a re-analysis of the deposited data

How the results depend on the processing

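The ratio of Cd63 and those of Cd9, Cd81, Tspan9 and Tspan14 kept their direction and their side of the threshold in all 13 alternatives with the threshold of 0.05, and at 0.01. The count of members past the threshold in the higher direction was 5 to 7 over the alternatives, with Cd151 leaving it in 10 of the 13 at 0.05 and also at 0.01, and Cd82 entering it with no filter, with the filter of 1 CPM and without 4OHT replicate 2, EtOH replicate 1 or EtOH replicate 3. The count in the lower direction was 1 to 2 when each library was left out (1 without 4OHT replicate 1 or EtOH replicate 1). Other tetraspanins called higher numbered 0 with DESeq2, 1 at a threshold of 0.01 and 1 to 3 when each library was left out (1 without 4OHT replicate 2). Sorting adaptor subunits called lower numbered 1, Ap3s2, with DESeq2 size factors, with upper quartile factors and with the replicate block, and 0 to 1 when each library was left out (1 without 4OHT replicate 3). The cause of these changes was not tested. All other counts of called genes stayed within 1.5 times the reported ones.

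Single genes were recomputed for the 9 tested members and 57 others, which leave out uncalled genes of the exosome, adaptor and lysosomal lists. Of these, 6 that were not called changed sign when a library was left out. The log2 fold change of Tspan3 ran from -0.061 to 0.064 (0.059 without 4OHT replicate 3, 0.064 without EtOH replicate 2), of Tspan2 from -0.076 (without EtOH replicate 2) to 0.30, of Tspan5 from -0.20 to 0.037 (without EtOH replicate 1), of Tspan13 from -0.029 (without 4OHT replicate 3, and -0.00013 without EtOH replicate 2) to 0.12, of Tspan15 from -0.39 to 0.013 (without EtOH replicate 2), and of Tspan33 from -0.25 to 0.19 (0.021, 0.099 and 0.19 without 4OHT replicate 2, 4OHT replicate 3 and EtOH replicate 3). Same-numbered libraries did not deviate together (correlations between -0.023 and -0.016), so the numbers were not used as pairs. With the replicate block 5 members were past the threshold in the higher and 2 in the lower direction, and 2585 genes rose and 2497 fell. The order of the members by level changed in part without division by gene length: Cd81 then had rank 1 in both groups, and Cd63 kept rank 3 in 4OHT and had rank 7, not 5, in EtOH, while Tspan9 had rank 6 in both groups, above Tspan4 and Tspan6. Genes under about 20 CPM, such as Tspan6, Tspan32, Cd37 and Cd82, are limited by depth.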

Other observations

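Most genes that lie next to the members were not part of any list. Tspan32, Tspan18 and Tspan11 were, as they belong to the list of other tetraspanins described above. Over the 10 members there were 19 different nearest protein-coding neighbours, of which 12 were tested with edgeR, 4 rose and 1 fell (21.4% and 20.6% of all tested genes). Apart from Tspan32 beside Cd81, those that rose were Tead4 beside Tspan9, Peak1 beside Tspan3 and the low Sh2d4b beside Tspan14, named after their values were seen. Tead4, a transcription factor gene of the trophectoderm that lies 83564 bases from Tspan9, was at 62.3, 67.3 and 64.4 CPM in the 4OHT libraries, against 32.8, 37.8 and 35.7 CPM in the EtOH libraries (log2 fold change 0.87, SE 0.09, edgeR adjusted p = 4.3e-19). Its log2 fold change was close to that of Tspan9, 0.87, and the groups of both genes stood apart. Peak1, a kinase-like gene 40055 bases from Tspan3, was at 119 ± 9.32 CPM in 4OHT and 74.3 ± 3.69 CPM in EtOH (SD, n = 3 each; log2 fold change 0.68, edgeR adjusted p = 1.0e-20), while the groups of Tspan3 overlapped. The one that fell was Vwf beside Cd9 (log2 fold change -0.66, edgeR adjusted p = 0.0093), with 5.48 ± 1.35 CPM in 4OHT and 8.73 ± 0.588 CPM in EtOH (SD, n = 3 each).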
